A study of Arabidopsis thaliana with 33 samples.

Results

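Phloem companion cells and the sieve-element lineage of the Arabidopsis thaliana root were compared through 2 arrays of sorted cells, out of 33 arrays in the series. The array of the SUC2 reporter line, labelled as companion cells, was set against the array of the S32 reporter line, labelled as protophloem and metaphloem, and the measure was the log2 intensity on the SUC2 array minus that on the S32 array for each probe set. Both lines were grown on the same medium with sucrose and no treatment, and root cells of seedlings of 5 to 6 days were freed as protoplasts and sorted by fluorescence. The 6 other sorted populations, with 1 array each, were S17 (pericycle at the phloem pole), JO121 (pericycle at the xylem pole), RM1000 (lateral root primordia), S4 (xylem of the meristem), COBL9 (hair cells) and J2501 (a mixture of pericycle, xylem and phloem). The labels give each reporter by name and not by its promoter. The remaining arrays used here were 24 cross sections of 2 roots of 7 days, 12 from each root. From the tip these were 6 meristematic, 2 elongation and 4 maturation sections, the last of about 500 µm each.

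Phloem conducts sugars and signals through files of sieve elements, which lose their nucleus as they mature while keeping plastids and mitochondria, and which are served by the companion cells beside them. In the root tip the protophloem matures first, close to the meristem, and the metaphloem later and further from the tip. Companion cells keep their nucleus and load, unload and supply the sieve elements through plasmodesmata.

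With 1 array on each side there was no replicate spread between SUC2 and S32, so no test of that difference was made and every difference below describes these 2 arrays. The deposited intensities had array medians of 0.870 (SUC2) and 0.892 (S32), and the SD of the log2 values was 1.35 and 1.26. Over all probe sets the SUC2 array ranked most like the S17 array (Spearman's rho 0.929) and the RM1000 array (0.925), and its rho with the S32 array was 0.884. These correlations describe arrays of 22746 shared probe sets. On material of many cells, fewer cells of a type and less RNA per cell cannot be told apart. Of the probe sets, 13513 listed a single gene, which gave 13237 nuclear genes, 69 plastid genes and 16 mitochondrial genes. Another 34 loci lie in the stretch of chromosome 2 that copies mitochondrial DNA and were counted apart from both.

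The nuclear genes were skewed towards the sieve-element side. At 4-fold or more, 229 of 13237 nuclear genes (1.73%) were higher on the S32 array and 63 (0.476%) were higher on the SUC2 array. The median over all nuclear genes was -0.15 and the range ran from -6.60 to 3.90. With a filter on low values the median was 0.10, so its sign depended on low values, while both counts stayed the same. The S32 side also went further: 116 of its 229 genes differed by 8-fold, 63 by 16-fold and 34 by 32-fold or more, whereas 13 of the 63 SUC2-side genes differed by 8-fold and none by 16-fold. Around the threshold, the nearest genes with a symbol on the SUC2 side were UGT85A2 (2.01) and GSTU22 (2.02) just inside it, and sks15 (1.998) and ATMDAR2 (1.99) just outside. On the S32 side ATG8H (-2.02) and cdc2cAt (-2.07) lay just inside, and DRT100 (-1.93) and EXPA15 (-1.93) just outside.

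**Figure D1:**
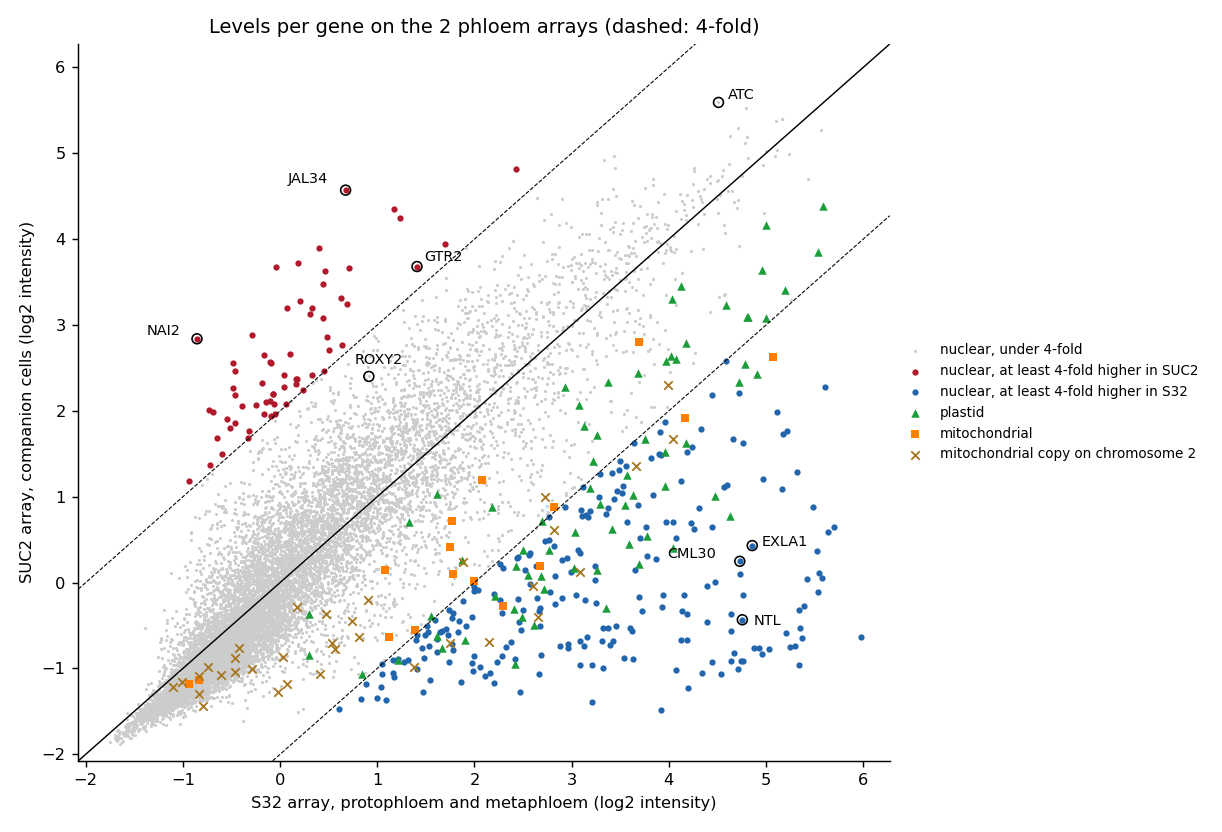
Log2 intensity of each gene on the S32 array (x) and the SUC2 array (y), with equality as a solid line and 4-fold as dashed lines. The 229 nuclear genes below the lower dashed line outnumber the 63 above the upper one, and all 69 plastid genes lie below the line of equality.

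The 2 arrays were first set beside phloem markers. Of the 17 companion cell markers listed, 4 were measured and all 4 were higher on the SUC2 array. ATC, a relative of the florigen FT, read 48.3 on SUC2, 22.8 on S32, 13.9 on S17 and between 0.786 and 1.2 on the other 5 arrays. It was thus highest in companion cells but also high on both other arrays of the phloem pole, and its difference from S32 was 1.08. UBC29, a ubiquitin-conjugating enzyme, read 22.1 on SUC2, 10.3 on S32, 5.32 on S17 and between 0.748 and 1.95 elsewhere, a difference of 1.09. ROXY2, a glutaredoxin (a small thiol oxidoreductase), read 5.28 on SUC2, 1.88 on S32, 1.22 on S17 and between 0.509 and 0.935 elsewhere, a difference of 1.49. These 3 genes shared an order, SUC2 above S32 and S32 above S17. GTR2, which transports glucosinolates, the defence compounds of this plant family, kept another order. It read 12.8 on SUC2, 12.0 on S17, 5.12 on RM1000 and 2.66 on S32, with 0.525 to 1.57 on the other 4, so SUC2 and S17 were nearly level and the difference from S32 was 2.27. Summed over the 4 genes, the intensity was 88.5 on SUC2, 37.7 on S32, 32.5 on S17 and at most 7.26 on the others. The gene SUC2 itself was not analysed here.

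The sieve-element markers separated the arrays more widely. Of 26 listed, 3 were measured and all 3 were higher on S32. NTL, listed in RefSeq as an NTF2-like gene, read 27.0 on S32, 0.741 on SUC2 and between 0.365 and 0.684 on the other 6, a difference of -5.19. CML30, a calmodulin-like calcium-binding protein, read 26.5 on S32, 1.19 on SUC2 and between 0.515 and 0.866 on the other 6, a difference of -4.48. Both were high on 1 array only of the 8. OPS, a polar membrane protein of the developing protophloem, read 0.832 on S32 and 0.530 on SUC2, and with at most 0.791 on the other 6 it was below the array median throughout. The summed intensity of the 3 was 54.4 on S32, 2.46 on SUC2 and at most 2.34 elsewhere. Each list summed highest on the array of its label. ATC, ROXY2, CML30 and NTL were put forward with these arrays in view, and the lists were chosen with earlier results of these data known. None of the measured markers is thus an independent check of the labels.

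Some markers of other cells were above the array median on both arrays. SWEET11, a sucrose exporter of phloem parenchyma, read 28.3 on S17, 12.0 on SUC2 and 5.47 on S32, and at most 1.02 on the other 5. LBD16, a regulator of lateral root initiation, read 6.23 on RM1000, 5.87 on S17, 2.47 on SUC2 and 1.93 on S32. The root hair expansins EXPA7 and EXPA18 summed to 23.9 on COBL9, 2.57 on RM1000, 2.38 on SUC2 and 1.28 on S32. The histone genes HTB1 and HTB2, expressed in dividing cells, summed to 12.2 on S4, 6.87 on S32 and 4.93 on SUC2, so S32 was next after the meristematic xylem. The xylem marker GUT2 read 0.764 on SUC2 and 0.754 on S32. No endodermis or root cap marker of the lists was measured.

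The genes highest on the S32 side were mostly low everywhere else. Of the 229 genes, 221 (96.5%) were highest on S32 among the 8 arrays, beside 8.29% of all nuclear genes. Picking genes that are high on S32 by itself raises that share. Of the 229, 127 (55.5%) exceeded all 6 populations outside the contrast by 4-fold or more. Their median intensity was 9.48 on S32 and between 0.588 and 0.859 on the other 7 arrays. Only 26 of the 229 had a symbol. Among the 15 largest with a symbol, all 15 were highest on S32 and 11 exceeded each of the 6 other populations by 4-fold.

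**Figure D2:**
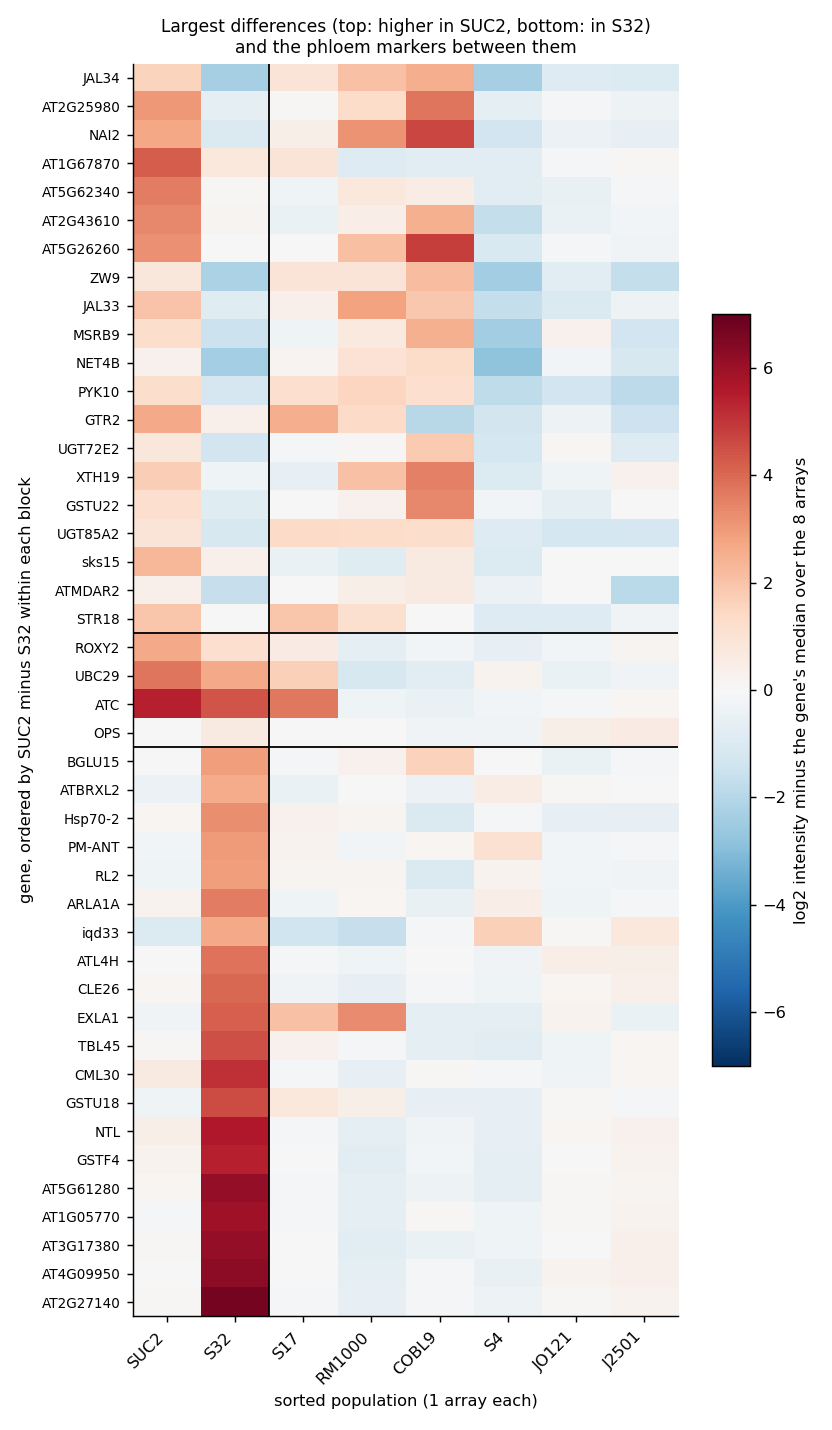
Log2 intensity minus the gene's own median over the 8 arrays, for the largest differences in each direction and the measured phloem markers; columns are the sorted populations and rows are genes. Genes of the bottom block stand out on S32 with few exceptions, while most of the top block are also raised on COBL9, RM1000 or S17.

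Of the genes with a symbol, 2 glutathione transferases were among the 3 largest differences on this side. GSTF4, a glutathione transferase (an enzyme that joins glutathione to small molecules), read 25 on S32, 0.677 on SUC2 and between 0.352 and 0.682 on the other 6, a difference of -5.20. GSTU18, of another class of that family, read 18.3 on S32, 0.629 on SUC2 and between 0.511 and 1.28 elsewhere, a difference of -4.86. Yet the family median did not lean this way, at 0.24. Of 14 glutathione transferases measured, 2 were 4-fold higher on S32 and 1, GSTU22, was 4-fold higher on SUC2. Among all nuclear genes the shares were 1.73% and 0.476%.

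Cell wall genes and signalling genes followed. TBL45, of a family that acetylates wall polysaccharides, read 21.0 on S32, 0.975 on SUC2 and at most 1.12 elsewhere, a difference of -4.43. EXLA1, an expansin-like wall protein, read 29.0 on S32, 15.8 on RM1000, 6.49 on S17 and 1.35 on SUC2, a difference of -4.43, so it was also high in 2 populations outside the contrast. CLE26, a signalling peptide whose application to roots suppresses protophloem differentiation, read 10 on S32, 0.692 on SUC2 and between 0.425 and 0.815 on the other 6, a difference of -3.85. It was the single member past 4-fold of 6 CLE peptide genes, beside 1.73% of nuclear genes on the S32 side. All 6 were lower on SUC2 (median -0.44), beside 8548 of 13237 nuclear genes. Only 3 of the 6 reached the array median on their higher side. ATBRXL2, a relative of the protophloem regulator BREVIS RADIX, read 5.56 on S32, 0.680 on SUC2 and at most 1.32 elsewhere, a difference of -3.03.

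Membrane, chaperone and transport genes completed the named genes. ATL4H, of a family of RING-finger ubiquitin ligases, read 8.94 on S32 and 0.644 on SUC2 (-3.79). ARLA1A, a small GTPase of the ARF-like group, read 16.5 on S32 and 1.63 on SUC2 (-3.35), and RL2, of the RHD3 family that shapes the endoplasmic reticulum, read 9.48 and 1.02 (-3.22). All 3 were at most 1.86 on the 6 other arrays. PM-ANT, an adenine nucleotide transporter of the plasma membrane, read 8.24 on S32, 0.903 on SUC2 and 2.12 on S4 (-3.19). The chaperone Hsp70-2 was not silent elsewhere, with 27.1 on S32 against 3.08 on SUC2, 3.43 on S17 and 3.23 on RM1000 (-3.14). Both iqd33, a calmodulin-binding scaffold protein, and BGLU15, a beta-glucosidase, had a second population. The gene iqd33 read 7.35 on S32, 3.72 on S4 and 0.598 on SUC2 (-3.62), and BGLU15 read 17.4 on S32, 6.95 on COBL9 and 2.28 on SUC2 (-2.94).

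The 5 largest differences among the nuclear genes were in genes known by locus code. AT2G27140 read 62.8 on S32 and 0.646 on SUC2 (-6.60), AT4G09950 read 40.5 and 0.515 (-6.30), and AT3G17380 read 39.5 and 0.601 (-6.04). AT1G05770 read 41.4 and 0.638 (-6.02), and AT5G61280 read 38.1 and 0.594 (-6.0). On the 6 other arrays none of the 5 exceeded 0.806, below every array's median.

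Autophagy, endoglucanase and histone genes were mostly higher on S32, as were 8548 of all 13237 nuclear genes. By 4-fold or more, 1.73% of all nuclear genes were higher on S32. Of 10 measured genes of autophagy, by which cells degrade their own contents, 8 were lower on SUC2, 2 by 4-fold, and the family median was -0.48 against -0.15 over all nuclear genes. APG8A, which encodes an ATG8 protein of the autophagosome membrane, read 21.8 on S32, 5.87 on COBL9 and 4.54 on SUC2 (-2.26). ATG8H, its relative, read 12.5 on S32, 9.25 on COBL9 and 3.08 on SUC2 (-2.02), so the second gene was nearly as high in hair cells. Of 15 GH9 endoglucanases, which cut glucan chains of the wall, 2 were 4-fold higher on S32, GH9B18 with 3.06 against 0.573 and GH9B6 with 2.43 against 0.528, and the family median was -0.41. From other families, the deubiquitinating enzyme UBP16 (7.07 against 1.35) and the beta-glucosidase BGLU41 (2.06 against 0.477) were also past 4-fold on this side. All 5 histone genes were lower on SUC2 (median -0.62), none by 4-fold, and HTB11 differed most (7.34 on S32, 4.04 on SUC2, 7.62 on S4).

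The 63 genes higher on the SUC2 side were mostly shared with other populations. The highest array of the 8 was SUC2 for 22 of them (34.9%), COBL9 for 29 (46.0%), S17 for 8 (12.7%), RM1000 for 3 and JO121 for 1. Over all nuclear genes the shares were 3.54% for SUC2, 15.3% for COBL9 and 9.35% for S17. Picking genes that are high on SUC2 against S32 by itself raises the SUC2 share. Their median intensity was 5.35 on SUC2, 7.87 on COBL9, 2.92 on RM1000, 1.86 on S17 and 0.969 on S32. Only 8 exceeded all 6 other populations by 4-fold. Only 12 of the 63 had a symbol, so the 15 largest differences with a symbol include genes just under 4-fold: sks15, ATMDAR2 and STR18. Of these 15, 9 were highest on COBL9, 3 on SUC2, 2 on RM1000 and 1 on S17, and none exceeded the 6 others by 4-fold. The hair cell markers beside them stood at 2.38 in sum on SUC2 and 23.9 on COBL9, and the part of hair cells in this pattern was not tested.

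The ER body list, which also holds jacalin-related lectins, was the most prominent family list on the SUC2 side. ER bodies are compartments of the endoplasmic reticulum that store defence beta-glucosidases in roots and seedlings of this plant family. Of 8 genes measured, 6 were higher on SUC2, 4 by 4-fold, with a median of 1.81. Among all 13237 nuclear genes, 4689 were higher on SUC2, 63 of them by 4-fold. PYK10, the main beta-glucosidase of root ER bodies, read 28.1 on SUC2 and 5.39 on S32 (2.38), and 34.1 on RM1000, 26.9 on COBL9 and 26.5 on S17. NAI2, which is required to form ER bodies, read 7.16 on SUC2 and 0.553 on S32 (3.70), and 28.2 on COBL9 and 9.86 on RM1000. The jacalin-related lectins JAL34 and JAL33 had the same neighbours: JAL34 read 23.8 on SUC2 and 1.60 on S32 (3.90), and 46.9 on COBL9 and 32.7 on RM1000. JAL33 read 9.18 on SUC2 and 1.26 on S32 (2.87), and 15.9 on RM1000 and 8.48 on COBL9. For each of the 4 genes at least 1 other population exceeded SUC2, and PYK10 stood above 26 on 4 of the 8 arrays. Whether probe sets of such close relatives share signal was not tested.

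Redox, glycosylation and wall genes made up most of the other named genes. MSRB9, which repairs oxidised methionine, read 9.94 on SUC2 and 1.54 on S32 (2.69), with 23.9 on COBL9. ATMDAR2, a monodehydroascorbate reductase, read 9.84 on SUC2 and 2.48 on S32 (1.99), with 12.0 on COBL9 and 10 on RM1000. GSTU22 read 4.22 on SUC2 and 1.04 on S32 (2.02), with 19.5 on COBL9. All 3 were thus higher in hair cells than in companion cells. Of 47 UGT glycosyltransferases, 2 were 4-fold higher on SUC2, beside 0.476% of all nuclear genes, and the family median was 0.03. UGT72E2, which glycosylates lignin precursors, read 4.21 against 0.960, and UGT85A2 read 3.89 against 0.963. XTH19, which cuts and rejoins xyloglucan in walls, read 3.83 on SUC2 and 0.936 on S32 (2.03), with 13.3 on COBL9. NET4B, of an actin-binding family, read 3.96 on SUC2 and 0.619 on S32 (2.68), with 7.87 on COBL9, and ZW9 read 11.2 on SUC2 and 1.36 on S32 (3.04), with 28.3 on COBL9.

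Of the 15 largest differences with a symbol, sks15, STR18 and GTR2 were highest on SUC2, and of these sks15 and STR18 were just under 4-fold. The gene sks15, of a family related to multicopper oxidases, read 4.33 on SUC2, 1.33 on COBL9 and 1.08 on S32. STR18, a sulfurtransferase, was level between SUC2 (5.12) and S17 (5.11) and read 1.29 on S32 (1.99). The families of the markers contained further genes highest on SUC2 below 4-fold. Of 5 glutaredoxins, 4 were higher on SUC2 (median 0.93), beside 4689 of 13237 nuclear genes. The glutaredoxin GRXC2 read 22.1 on SUC2, 8.56 on S17 and 7.45 on S32 (1.57). The transcription factors bZIP44 and WRKY22 were also highest there: bZIP44 read 19.6 on SUC2, 7.18 on S17 and 6.92 on S32 (1.5), and WRKY22 read 8.22 on SUC2, 4.70 on S17 and 2.43 on S32 (1.76). The tetraspanin TET6, a membrane protein, read 10.2 on SUC2, 5.96 on S17 and 4.82 on S32 (1.08).

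The 8 genes most restricted to the SUC2 array all carry locus codes, and the 22 genes highest there were singled out after their values were seen. AT1G67870 read 13.2 on SUC2, 1.14 on S32 and at most 1.29 elsewhere (3.54). AT5G62340 read 14.9 on SUC2, 1.32 on S32 and at most 2.11 elsewhere (3.5), and AT1G64370 read 12.3, 1.38 and at most 1.62 (3.16). These 3 stood out on 1 array as the sieve-element genes did on theirs. The other 5, AT1G33750, AT1G19715, AT5G59080, AT1G70810 and AT1G52700, read between 3.41 and 5.92 on SUC2 and between 0.600 and 1.18 on S32. Of the 5 largest locus-code genes on this side, AT2G25980 (3.73) and AT5G26260 (3.17) were highest on COBL9, with 21.2 and 22.8 there, and AT2G43610 (3.18) read 20.4 on SUC2 and 11.1 on COBL9.

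Families with a median near that of all nuclear genes included the 40 MADS transcription factors (median -0.25), 29 serine carboxypeptidase-like proteins (-0.19), 23 cytochromes P450 (-0.17), 14 SWEET sugar transporters (-0.16) and 11 RALF peptides (-0.16), with no member past 4-fold in any of them. Their medians lay within 0.1 of the nuclear median of -0.15. Past 4-fold lay 1.73% of nuclear genes on the S32 side and 0.476% on the SUC2 side. Many of these genes were faint: 8 of the MADS genes and 7 of the cytochromes P450 reached the array median on their higher side. With a filter on low values the medians were -0.35 for cytochromes P450 and 0.37 for SWEET genes. They were 0.08 for MADS, 0.18 for carboxypeptidase-like and 0.16 for RALF genes, and 0.10 over all nuclear genes.

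Organelle-encoded genes all pointed one way. Each of the 69 plastid genes was lower on SUC2 than on S32, 38 of them by 4-fold (55.1%), and the median difference was -2.13. Each of the 16 mitochondrial genes was lower too, 4 by 4-fold (25%), with a median of -1.72. The 34 loci of the mitochondrial copy on chromosome 2, whose probe sets may read mitochondrial transcripts, were all lower as well, 9 by 4-fold, with a median of -1.25. The median plastid intensity was 10.2 on S32 against 2.33 on S4, 1.89 on SUC2 and between 0.982 and 1.61 on the other 5. All 69 plastid genes were highest on S32 of the 8 arrays, and so were 13 of the 16 mitochondrial genes, beside 8.29% of all nuclear genes. It was thus the S32 array that stood apart, and SUC2 lay among the rest.

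**Figure D3:**
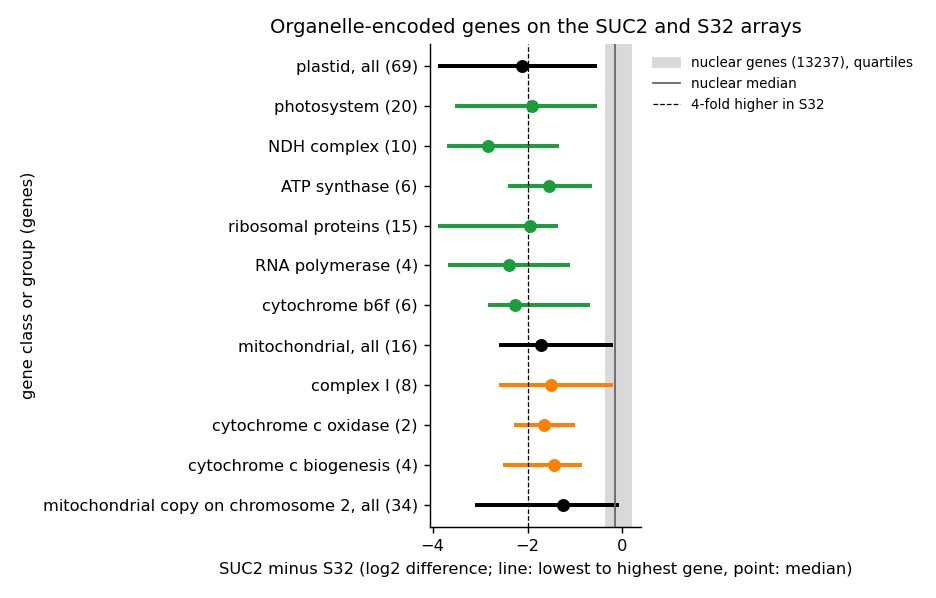
Difference SUC2 minus S32 (log2) for organelle gene groups, as a line from the lowest to the highest gene with a point at the median; the grey band holds the middle of the 13237 nuclear genes between their quartiles. The plastid median of -2.13 and the mitochondrial median of -1.72 lie below that band.

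The shift ran through every functional group of plastid genes. The 10 genes of the NDH complex, which carries electrons around photosystem I, had the lowest median (-2.84), with 8 past 4-fold. The 4 subunits of the plastid RNA polymerase had a median of -2.39, the 6 cytochrome b6f genes -2.27, the 15 ribosomal protein genes -1.94, the 20 photosystem genes -1.90 and the 6 ATP synthase genes -1.55. The largest single difference was in rpl20, a ribosomal protein gene, which read 24.7 on S32, 5.55 on S4 and 1.72 on SUC2 (-3.85). Next came ndhG, with 10.2 on S32 and 0.815 on SUC2 (-3.65), and the polymerase gene rpoC2, with 16.4 on S32 and 1.32 on SUC2 (-3.64). The smallest were the photosystem II genes psbH (-0.58), psbE (-0.62) and psbJ (-0.65), and psbJ still read 7.63 on S32, 4.85 on SUC2 and 4.49 on S17.

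Differences of mitochondrial genes ran from -2.57 to -0.25. The complex I gene nad4 read 33.7 on S32, 12.5 on S4 and 6.16 on SUC2 (-2.45), nad4L read 4.90 on S32 and 0.826 on SUC2 (-2.57), and ccb452, a gene of cytochrome c maturation, read 6.39 on S32 and 1.14 on SUC2 (-2.49). The smallest differences were those of nad2 (-0.25) and nad7 (-0.29), which were below the array median on every sorted array but JO121. The labelling protocol starts from poly(A) tails, which organelle transcripts mostly lack or carry briefly, and its part in these levels was not tested.

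The sections gave measurements that shared no array with the contrast. For each root the log2 values were averaged by zone, and limma compared the maturation with the meristematic zone with root as a block (n = 2 roots; the zone means of a root are not independent). Nuclear genes were called higher in the maturation zone in 5.81% of cases and lower in 6.82%, and over all probe sets the shares were 6.66% and 7.07%. Of the 63 genes higher on SUC2, 25 were higher in maturation and 13 lower, and their median difference was 0.51 (0.42 in root 1 and 0.60 in root 2). Of the 229 genes higher on S32, 20 were higher and 14 lower, shares near those of all nuclear genes, with a median of 0.13.

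Part of this contrast went with the level in sections. Of the 229 S32-side genes, 112 (48.9%) stayed under an intensity of 2 in every section of both roots, against 11 of the 63 SUC2-side genes and 63.9% of all nuclear genes. Among genes that reached 2 in both roots, 19.9% of nuclear genes were higher in maturation and 26.0% lower. On that footing 24 of 48 SUC2-side genes were higher and 13 lower, and 16 of 61 S32-side genes were higher and 13 lower.

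The SUC2-side genes split by where they were highest. Of the 41 that another population exceeded, 21 were higher in maturation and 6 lower (median 0.96), and their median level peaked in section 11 of root 1 and section 12 of root 2. Of the 22 highest on SUC2, 4 were higher and 7 lower (median 0.11). Over all nuclear genes 5.81% were higher and 6.82% lower. The 2 sets also differed in section level, with 36 of the 41 and 12 of the 22 reaching 2 in both roots. Of those 36, 21 were higher and 6 lower, and of those 12, 3 were higher and 7 lower. Nuclear genes at that level were higher in 19.9% and lower in 26.0% of cases. The difference between these 2 sets was not tested. By limma 0 of 69 plastid genes passed in either direction (median -0.47), and at an unadjusted p under 0.05 there were 19 lower and 0 higher, at a cut-off that 14.9% of nuclear genes passed downwards and 11.4% upwards. Of 16 mitochondrial genes 0 passed, 0 also at an unadjusted p under 0.05 (median -0.05).

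**Figure D4:**
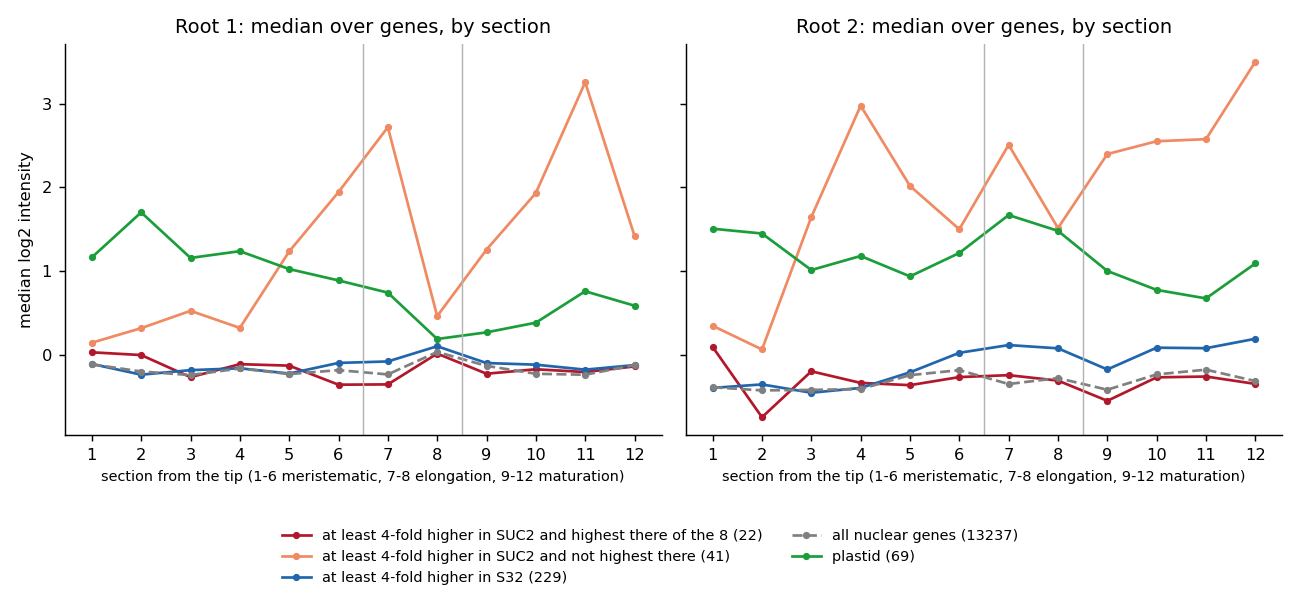
Median log2 intensity of gene groups in each of 12 sections from the tip (x) in root 1 and root 2. The 41 SUC2-side genes highest elsewhere reach their top at section 11 (3.26) and section 12 (3.5), while the 22 genes highest on SUC2 and the 229 S32-side genes stay near the nuclear median.

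Of the 4 companion cell markers, 2 rose away from the tip. ATC had a median of 1.76 over the meristematic and 6.95 over the maturation sections of root 1, and 1.24 and 14.9 in root 2, with tops of 18.2 in section 11 and 35.0 in section 12. It rose by 2.41 ± 0.39 on the log2 scale (SE, n = 2 roots; limma adjusted p = 0.0231). UBC29 rose by 1.41 ± 0.21 (adjusted p = 0.0195) and was highest in section 12 of both roots, at 3.45 and 4.70. GTR2 differed by 0.91 ± 0.23 and did not pass (adjusted p = 0.0607). ROXY2 stayed between 0.750 and 1.09 in root 1 and reached 3.24 in section 8 of root 2 (0.29 ± 0.25, adjusted p = 0.594).

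The sieve-element markers were faint in sections. NTL did not exceed 0.918 in root 1 and was highest at 2.01 in section 8 of root 2, and CML30 was highest at 1.30 in section 6 of root 1 and 1.94 in section 7 of root 2. Neither passed (adjusted p = 0.691 and 0.290). The 5 largest S32-side genes by locus code did not exceed 1.51 in any section of root 1. In root 2 their highest values were 6.19 (AT3G17380), 2.99 (AT4G09950), 2.67 (AT2G27140), 2.25 (AT5G61280) and 1.40 (AT1G05770). Of the 20 largest S32-side genes, symbols and locus codes together, 3 passed. EXLA1 rose by 2.73 ± 0.28 (adjusted p = 0.0101), from medians of 1.43 and 2.54 to 6.64 and 22.3 in the 2 roots, and BGLU15 rose by 1.08 ± 0.23 (adjusted p = 0.0419). The gene iqd33 fell by 1.07 in log2 units, with an SE of 0.14 and an adjusted p = 0.0152, and peaked at the upper end of the meristem, at 3.09 in section 6 of root 1 and 2.78 in section 5 of root 2. Among families, 6 of 10 autophagy genes rose by limma and 0 fell, beside 5.81% and 6.82% of all nuclear genes. At an unadjusted p under 0.05 the counts were 8 and 0, beside 11.4% and 14.9% of nuclear genes. Among them ATG8H rose by 2.24 ± 0.24 (adjusted p = 0.0104) and APG8A by 1.34 ± 0.23 (adjusted p = 0.0262). Of 5 histone genes, 4 fell.

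**Figure D5:**
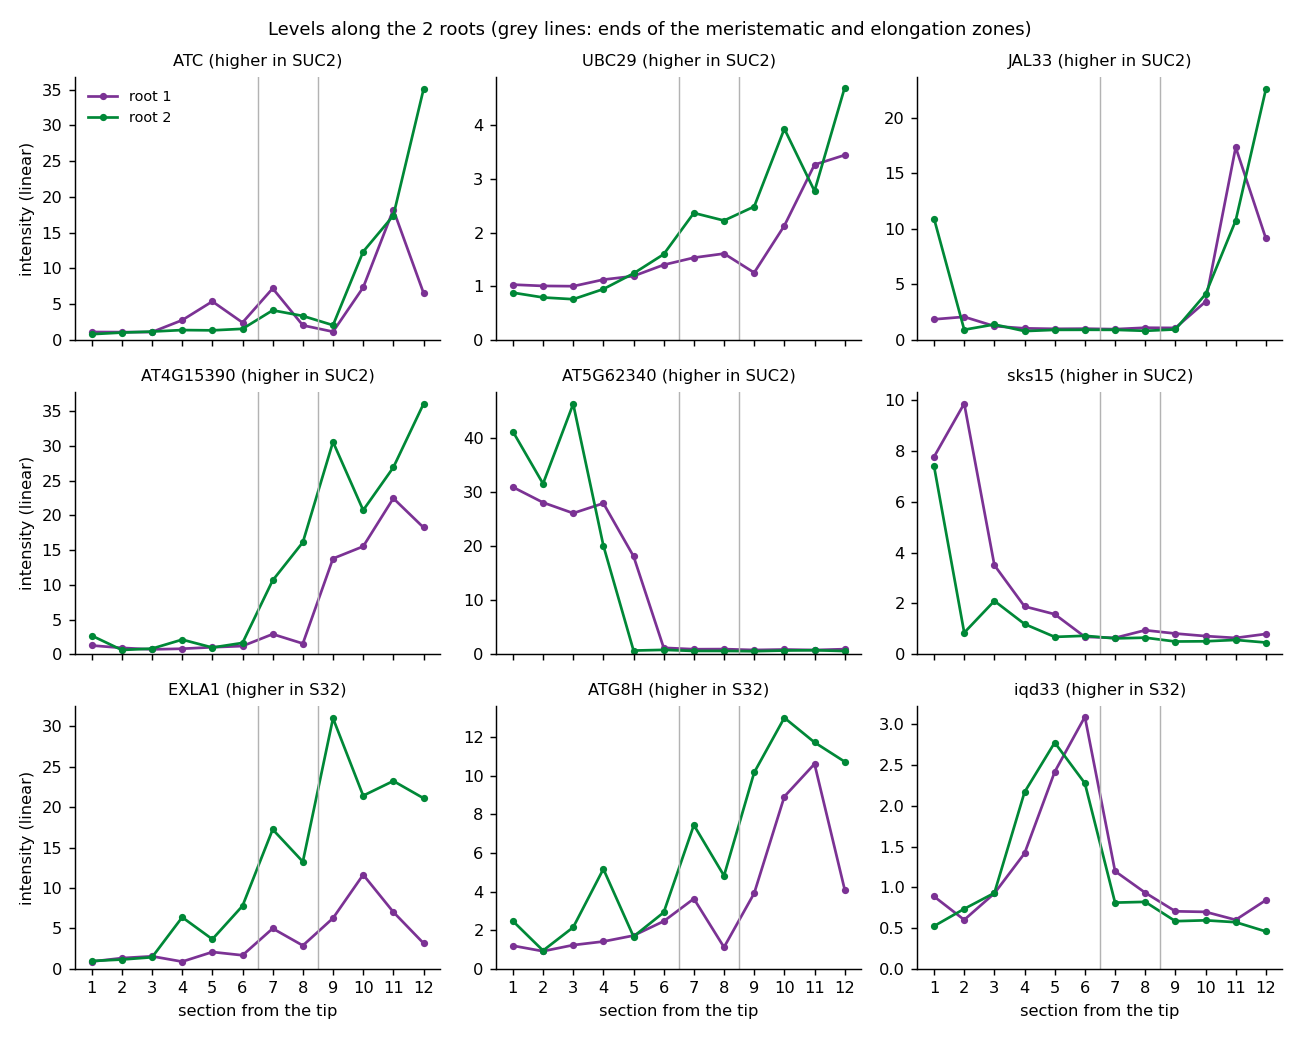
Intensity of 9 genes in the 12 sections from the tip (x) of root 1 and root 2. ATC, UBC29, JAL33 and AT4G15390 rise towards the maturation sections, AT5G62340 and sks15 are high near the tip, and of the S32-side genes EXLA1 and ATG8H rise while iqd33 peaks in sections 5 and 6.

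The named genes higher on SUC2, not all of them past 4-fold, included both patterns. JAL33 rose by 1.93 ± 0.15 (adjusted p = 0.00635), reaching 17.3 in section 11 of root 1 and 22.6 in section 12 of root 2, although section 1 of root 2 also read 10.9. PYK10 rose by 1.55 ± 0.25 (adjusted p = 0.0223) from meristematic medians of 7.87 and 7.75 to 15.4 and 24.1. JAL34 and NAI2, of the same family list, did not pass (0.10 and 0.52; adjusted p = 0.870 and 0.139). GSTU22 rose by 1.01 ± 0.11 (adjusted p = 0.0111), STR18 by 1.01 ± 0.14 (adjusted p = 0.0178) and ZW9 by 0.88 ± 0.17 (adjusted p = 0.0337). These 3 were also high in the meristem: GSTU22 was highest in section 4 of root 2 (22.4), STR18 in section 1 of root 2 (14.3), and ZW9 in section 5 of root 1 (28.8) and section 4 of root 2 (21.8). In log2 units MSRB9 fell by 1.39, XTH19 fell by 1.41 and sks15 fell by 1.71 (adjusted p = 0.0216, 0.0287 and 0.0117). The last was highest in section 2 of root 1, at 9.85, and in section 1 of root 2, at 7.39.

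Genes highest on the SUC2 array reached both ends of the root. AT4G15390 had meristematic medians of 0.971 and 1.31 and maturation medians of 16.9 and 28.8, a rise of 4.30 ± 0.54 (adjusted p = 0.0140). AT5G62340 ran the other way, from 27.0 and 25.8 to 0.844 and 0.650, and in log2 units it fell by 4.01, with an SE of 0.13 (adjusted p = 0.00347). AT5G10130 fell by 2.97 and AT2G41800 fell by 2.86 in the same direction (adjusted p = 0.00347 and 0.00649), and both were above 20 in a section near the tip of root 2. AT1G67870 and AT1G64370, the most restricted genes of the SUC2 array, never exceeded 1.11 in any section.

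The calls differed in how far they rested on single arrays. JAL33, UBC29, EXLA1, ATG8H, iqd33, sks15, AT4G15390, AT5G62340, AT5G10130 and AT2G41800 passed with each of the 24 section arrays left out in turn. Without root as a block, however, EXLA1 (adjusted p = 0.130), iqd33 (0.0682), ATG8H (0.0796) and sks15 (0.0593) did not pass, and sks15 did not pass after quantile normalization either (0.0875). With maturation section 3 of root 1 left out, ATC was no longer called (adjusted p = 0.0674). The same held for MSRB9 with elongation section 1 of root 1 left out (adjusted p = 0.242). GSTU22 lost it without either elongation section of root 1 (at most 0.151), STR18 without meristematic section 5 or 6 of root 2 (at most 0.0807), and PYK10 without elongation section 1 or 2 or maturation section 3 of root 1 (at most 0.0938). APG8A passed in 20 of the 24 fits, XTH19 in 17, ZW9 in 15 and BGLU15 in 14. Without the block ATC passed (adjusted p = 0.0214), and the other 8 genes of these sentences did not (adjusted p from 0.0527 for PYK10 to 0.392 for STR18). Without elongation section 2 of root 1, the array of lowest spread (SD 0.426 of log2 values), 15 of the 63 SUC2-side genes were called higher in maturation instead of 25. The description of that array names the other root, and its title places it in root 1.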

How the data were processed

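The members, lists and named genes were chosen with earlier results of these data known. The deposited values are a linear intensity per probe set, with array medians near 1; how the authors corrected, summarised and scaled the probes is not given in the sources used here. Per the labels' protocols, a column kit yielded the RNA and 2 rounds of amplification the cRNA. Each line has 2 to 3 replicates in the design text, and no source says whether the values of an array are their mean. Intensities were converted to log2 with no offset or filter. Platform annotation listed 1 gene for 13513 of 22746 probe sets, and 13436 of these matched RefSeq by gene ID (TAIR10.1, names only). A gene with several probe sets was read by the one of highest mean over the 8 sorted arrays. Loci AT2G07667 to AT2G07835, the mitochondrial copy on chromosome 2, were set apart after values were seen. Families were built from symbols, since no product names were given.

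Named genes are the 15 largest differences per direction with a symbol and the 5 largest without, at or above the array median, all measured phloem markers, up to 4 members per family past 4-fold (otherwise the 2 largest), and the 3 largest and smallest of each organelle genome. Section zones were compared with limma 3.58.1 in R 4.3.3, as zone means per root with root as a block, a moderated two-sided test and Benjamini-Hochberg adjustment over all probe sets at 0.05, with residual df of 2 and prior df of 3.063. As a check of the block, the difference between roots was correlated from position to position (median 0.477 over 66 pairs, from -0.233 to 0.834). Each root was 1 plant, and root as a block removes the overall difference between roots. The p-values thus measure how far differences between zones varied between the 2 roots, with that spread moderated over probe sets. The number of arrays limits the precision. The steps were tested on simulated data.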

Additional observations from a re-analysis of the deposited data

How the results depend on the processing

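Without replicates, the counts between SUC2 and S32 depend on the scale. With an offset of 1 the 4-fold counts were 20 nuclear genes on the SUC2 side and 127 on the S32 side, 20 plastid and 1 mitochondrial, all nuclear ones among those counted without an offset. An offset of 0.1 gave 52 and 205, and quantile normalization gave 59 and 229, of which 57 and 223 were shared. Scaling each array by its median and spread gave 42 and 310, and 7 mitochondrial genes. The median of all probe sets moved from -0.12 to 0.01 under quantile normalization and to -0.02 under that scaling. The scaling moved the autophagy median to -1.11 and the tubulin median from 0.22 to -0.46. A filter on low values moved the median of all nuclear genes from -0.15 to 0.10. It moved the medians of UGT enzymes to 0.73, glutathione transferases to 0.88, ER body genes to 2.63, tetraspanins from -0.15 to 0.66 and CLE peptides to -1.42. No called difference between the arrays changed sign.

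Between zones, the fit without the replicate block called 441 probe sets higher and 289 lower, with 12 and 8 SUC2-side and 2 and 5 S32-side genes. The fit to all 24 arrays, which treats sections as replicates, called 3237 and 3047, with 60 and 22 S32-side genes. An offset of 1 gave 711 and 1031, with 15 SUC2-side genes higher and 9 and 6 S32-side genes, and quantile normalization gave 16 SUC2-side genes higher. With each array left out in turn the calls ran from 886 to 1910 higher and 723 to 1861 lower. SUC2-side genes ran from 15 to 30 higher and 8 to 13 lower, and S32-side genes from 10 to 26 higher and 7 to 14 lower. Arrays whose loss moved a count by over 1.5 times were elongation sections 1 and 2 of root 1 (886 and 723 calls without the first, 922 lower without the second), elongation section 1 of root 2 (958 lower) and maturation section 3 of root 1 (984 higher). Without the 4 root 1 arrays of lowest spread, an alternative chosen after seeing the data, the counts were 26 and 9 on the SUC2 side and 27 and 14 on the S32 side. The cause of these shifts was not tested.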

Other observations

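Probe sets outside the gene counts leaned the same way at 4-fold, but less strongly. Of 8730 probe sets that the annotation did not list, 130 (1.49%) were at least 4-fold higher on S32 and 75 (0.859%) on SUC2. Of 503 that list several genes the counts were 12 (2.39%) and 6 (1.19%). The shares of nuclear genes were 1.73% and 0.476%. The median difference was -0.05 for the unlisted probe sets and -0.15 for nuclear genes. The largest differences among the unlisted ones were -6.39 and 3.92.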
